A study of Mus musculus with 4 samples.

Results

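The genes described here encode the respiratory chain and ATP synthase of mitochondria. They were taken by symbol, as probe sets that carried a single gene symbol of a complex I to IV subunit, a complex I assembly factor, an ATP synthase subunit or a mitochondrially encoded chain protein. This gave 97 genes of 22180 with a symbol of their own. Of these, 87 are nuclear and 10 mitochondrially encoded. RNA came from Beta-TC-6 cells, an insulin-making beta cell line derived from a mouse tumour driven by SV40 large T antigen. The siNF90 cells received a mixture of siRNA duplexes against NF90, a double-stranded RNA-binding protein, and the siNTC cells a negative control siRNA, both with a lipid reagent and in glucose-containing medium with serum. Each group had 2 Affymetrix Mouse Gene 2.1 ST arrays. The labels name no time after transfection, and nothing in them says that a group's arrays stem from different cultures. The p-values therefore reflect array-to-array spread alone, possibly technical. The level of NF90 is not reported here, and the groups go by their labels.

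The respiratory chain passes electrons from NADH through complex I, or from succinate through complex II, to coenzyme Q, complex III, cytochrome c and finally oxygen at complex IV. Complexes I, III and IV pump protons, and ATP synthase uses the gradient to make ATP. In beta cells the rise in ATP closes potassium channels and triggers insulin release, so this machinery couples glucose to secretion. Most subunits are nuclear genes, while the core of the membrane parts is encoded by mitochondrial DNA, and complexes I, III and IV and ATP synthase combine products of both genomes.

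The arrays shared their scale, with medians of 1.65 to 1.68 over all probe sets, and correlated at r = 0.9895 to 0.9927 across genes, which are not independent replicates. Values are log2 probe set values. Background was not measured. The median level over all genes, 1.845, therefore serves as a guide only, and it does not tell a detected gene from an undetected one. By this guide 90 of the 97 members stood at or above the median in at least 1 group. All 9 beta cell markers examined did so too, among them Ins2 at 7.88 to 8.01 and Iapp at 10.27 to 10.58. None of the 4 exocrine and duct, 3 endothelial, 3 leukocyte and 3 fibroblast markers did, while markers of other islet cells did: both alpha cell markers measured, with Gcg at 8.5 to 8.88, 1 of 2 delta cell markers, Sst at 6.54 to 6.86, and the PP cell marker Ppy at 2.12 to 2.54. Beta-TC-6 is a single cell line, and whether cells of other types were present was not tested. In RNA from whole cultures, fewer cells of a type and less RNA per cell cannot be told apart.

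Differences between the groups were small for most members, and limma's test, adjusted over the whole table, called none of them. The median log2 difference, siNF90 minus siNTC, was 0.02 over the 97 members, 0.015 over all genes and 0.02 over the 11457 genes that reached the median level. In siNF90 53.6% of the members were higher, against 53.1% of all genes. The adjusted p of the members ran from 0.357 to 0.992, and 0% of all genes were called at an adjusted p under 0.05. At an unadjusted p under 0.05 there were 9 members, or 9.28%, where 10.3% of all genes passed. Of these members 6 were higher in siNF90 and 3 lower, against 5.87% and 4.41% of all genes in those directions. Restricted to the median level or above, 8 of 90 members (8.89%) were under 0.05, against 14.7% of all genes at such levels. With a trend of the variance prior on gene level, limma called 0.455% of all genes, and no member was among them (smallest adjusted p = 0.0738, Ndufa1).

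Differences below 0.2 in size on the log2 scale were found in 73 of 97 members (75.3%), against 67.1% of all genes. At the median level or above the share was 75.6% of members and 60.7% of all genes. The arrays of a group lay close together for the 97 members, with a median distance of 0.12 in siNTC and 0.09 in siNF90. Over all genes this distance was 0.15 in both groups, and over those at the median level or above 0.14. The groups did not overlap in 44 members, 28 with both siNF90 arrays above and 16 with both below, where 39.8% of all genes did not overlap, 21.9% above and 17.9% below. As a share, 45.4% of the members were separated. Among genes that reached the median level the share was 46.7% of members and 48.1% of all genes.

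**Figure D1:**
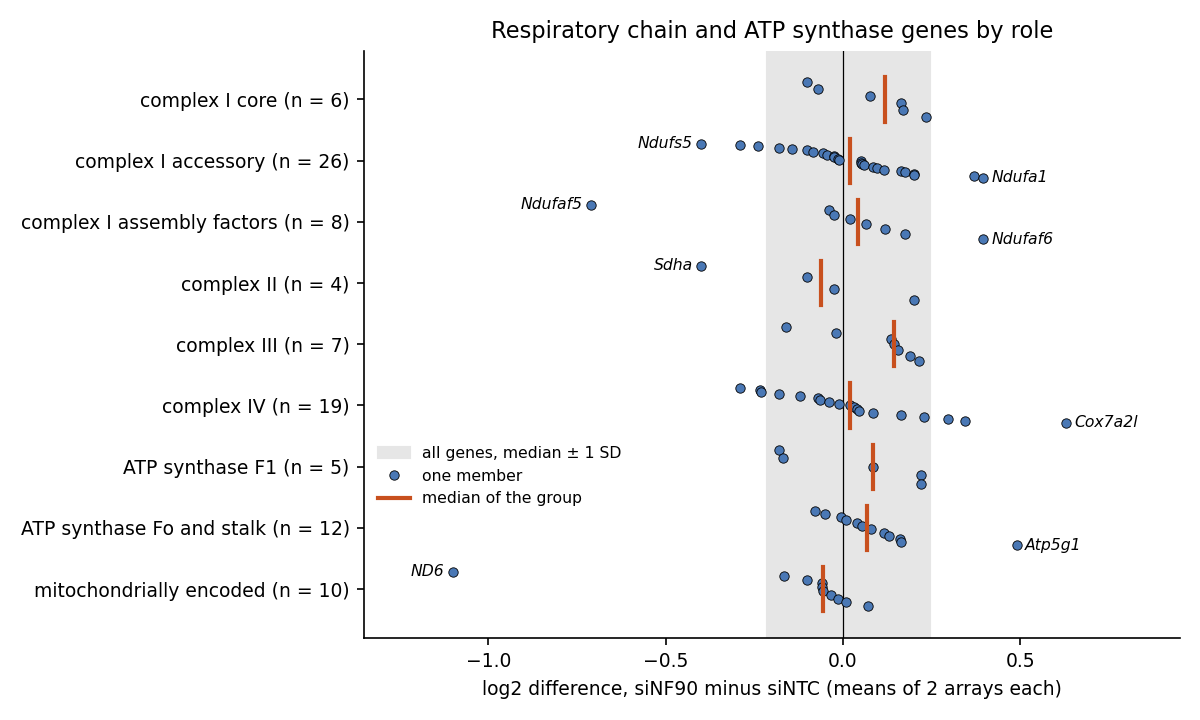
Log2 difference between the mean of the 2 siNF90 arrays and the mean of the 2 siNTC arrays for each of the 97 members, by role, with the median of each role and, as a grey band, the median ± 1 SD over all 22180 genes. Most members lie inside the band; Ndufaf5, Cox7a2l, Sdha, Ndufs5, Ndufa1, Ndufaf6, Atp5g1 and ND6 are labelled as the outermost of their roles.

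Nuclear respiratory genes are known for promoters without a TATA box that are bound by NRF1, by the ETS factor GABPA and by YY1. RefSeq promoter windows (GRCm38.p6) were at hand for 72 of the 87 nuclear members (77 windows). The 250 bases before each start were searched on both strands for the exact letters of each motif. Bases after the start were not searched, so a motif there would be missed. The NRF1 core GCATGCG was present in 13.0% of member windows and in 3.02% of all 32851 windows. The ETS core CCGGAAG was present in 18.2% and 6.91%, the YY1 core AAGATGG in 1.3% and 4.49%, and the TATA box TATAAAA in 3.9% and 4.98%. The NRF1 core and its reverse complement overlap in a palindrome, and member windows also hold more CG dinucleotides (median 15) than all windows (median 6). A match is a description of the letters, not evidence of binding.

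The 10 members with the NRF1 core are shown because, of the 4 motifs, this core had the highest share in member windows relative to all windows. The ETS core was present in more members. In the sequences capitals mark the core on either strand, and each line reads 5′ to 3′ along the gene.
Atp5g2, chr15:102671065-102671102, minus strand: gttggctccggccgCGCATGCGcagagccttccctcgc
Atp5j, chr16:84835100-84835137, minus strand: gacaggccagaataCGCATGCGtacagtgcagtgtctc
Atp5k, chr5:108434425-108434462, minus strand: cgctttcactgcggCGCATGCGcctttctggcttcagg
Atp5l, chr9:44920960-44920992, minus strand: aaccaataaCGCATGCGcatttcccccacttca
Cox6a1, chr5:115349096-115349133, minus strand: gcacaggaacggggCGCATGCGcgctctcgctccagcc
Ndufa6, chr15:82354351-82354388, minus strand: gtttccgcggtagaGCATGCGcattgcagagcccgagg
Ndufa8, chr2:36049339-36049361, minus strand: cgcgtcgctggagaCGCATGCGc
Ndufa11, chr17:56717689-56717726, plus strand: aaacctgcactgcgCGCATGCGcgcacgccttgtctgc
Ndufaf4, chr4:24897957-24897994, plus strand: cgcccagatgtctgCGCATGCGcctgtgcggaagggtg
Sdhb, chr4:140961203-140961240, plus strand: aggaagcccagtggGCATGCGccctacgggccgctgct
These 10 genes belong to complexes I, II and IV, to complex I assembly and to ATP synthase. Of them, 8 were higher and 2 lower in siNF90, with a median log2 difference of 0.15, against 0.05 in members with a window and no NRF1 core. Cox6a1, Atp5j and Ndufa6 were counted by sign at differences of 0.02, -0.005 and -0.025. Ndufa11 differed by 0.37 on the probe set used and by -0.0025 with the mean of its probe sets. The 14 members with the ETS core had 11 higher and 3 lower and a median of 0.11, against 0.05 in members with a window and no ETS core. Of all genes 53.1% were higher. Cox6a1, Atp5j and Atp5l hold both cores. The split by motif was made on genes of the same arrays, was not tested and was not repeated with an array left out.

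Ndufaf5, Cox7a2l and Sdha were chosen after their values were seen, and Ndufs5 had the same difference as Sdha. None of the 4 motifs was found, as exact letters, in their last 100 bases before the start, which are shown for comparison. Variants of a core were not searched for, so a site with other letters would be missed.
Ndufaf5, chr2:140170546-140170645, plus strand: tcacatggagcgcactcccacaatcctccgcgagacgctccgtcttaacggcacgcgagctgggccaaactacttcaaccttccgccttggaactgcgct
Cox7a2l, chr17:83514334-83514433, minus strand: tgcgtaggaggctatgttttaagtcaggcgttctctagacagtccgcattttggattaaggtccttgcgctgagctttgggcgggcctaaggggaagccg
Sdha, chr13:74350241-74350340, minus strand: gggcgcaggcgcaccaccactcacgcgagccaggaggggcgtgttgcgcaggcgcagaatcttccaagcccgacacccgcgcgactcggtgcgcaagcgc

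Complex I takes electrons from NADH through a flavin and a row of iron-sulphur clusters. The 6 nuclear core subunits measured all had groups that did not overlap, as did 48.1% of all genes that reached the median level. Every difference was small and none passed the test. Ndufs8, an iron-sulphur subunit next to the coenzyme Q site, stood at 6.83 and 6.82 on the siNTC arrays and 7.13 and 6.99 on the siNF90 arrays, a log2 difference of 0.235 ± 0.12 (SE of the fit, n = 2 arrays each; limma, adjusted p = 0.573). Ndufs3, a subunit of the hydrophilic arm, stood at 3.26 and 3.29 against 3.47 and 3.42. Ndufs7, which holds the last iron-sulphur cluster, stood at 6.48 and 6.58 against 6.71 and 6.68. Both siNF90 arrays were the higher ones for these 3 genes.

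Ndufv1, the flavin-bearing subunit that oxidises NADH, stood at 6.13 on both siNTC arrays and at 6.24 and 6.17 in siNF90. Its partner Ndufv2 stood at 6.97 and 6.9 in siNTC and at 6.82 and 6.85 in siNF90, on the other side. Ndufs1, the largest subunit, stood at 6.41 and 6.35 against 6.32 and 6.3. Its log2 difference was -0.07 with a 95% interval of -0.36 to 0.22, which spans both directions. The median over the 6 core subunits was 0.12, and it stayed between 0.09 and 0.15 when each array was left out in turn.

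**Figure D2:**
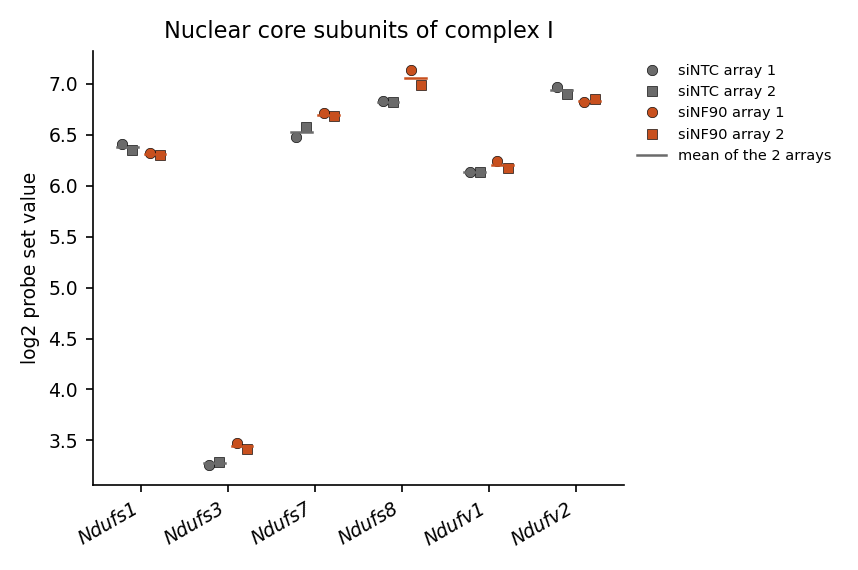
Log2 values of the 6 nuclear core subunits of complex I on each of the 4 arrays, with the mean of each group as a line. Ndufs3, Ndufs7, Ndufs8 and Ndufv1 lie higher on both siNF90 arrays, Ndufs1 and Ndufv2 lower, and no difference exceeds that of Ndufs8.

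The 26 accessory subunits of complex I, which surround and stabilise the core, were split evenly, with 13 higher and 13 lower and a median of 0.02. Ndufa1, a small membrane-anchored subunit encoded on the X chromosome, stood at 6.9 and 6.85 in siNTC and at 7.3 and 7.24 in siNF90. That is 1.31-fold higher, with a log2 difference of 0.395 ± 0.12 (SE, n = 2 each; limma, unadjusted p = 0.0154, adjusted p = 0.409). The distance between the groups was larger than the distance within either group. Ndufs5, an accessory subunit on the intermembrane space side, stood at 1.99 and 1.89 against 1.63 and 1.45, a difference of -0.4 ± 0.13. Its siNF90 values lie below the median level, and a probe set that carries the Ndufs5 symbol beside that of a pseudogene was not used. That probe set (17325719) stood higher, at 4.76 and 4.87 in siNTC and at 4.68 and 4.72 in siNF90.

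Ndufa11, which sits in the membrane arm, stood at 6.24 and 6.11 in siNTC and at 6.68 and 6.41 in siNF90, a difference of 0.37 ± 0.14. A second probe set of Ndufa11 stood at 1.22 to 1.84, below the median level on all 4 arrays, and differed by -0.375. The mean of both gave a difference of -0.0025. Among the 9 members with 2 probe sets, 6 had the same sign on both and 3 (Ndufa11, Atp5h and Cox5b) did not. The other accessory subunits ranged from Ndufa12 at -0.29 to Ndufa13 and Ndufv3 at 0.2.

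Complex I is built from modules by dedicated assembly factors, of which 8 were measured. Ndufaf5, which hydroxylates the core subunit Ndufs7 during assembly, stood at 3.45 and 3.6 in siNTC and at 2.96 and 2.67 in siNF90. The groups did not overlap, siNF90 being lower. It was 1.64-fold lower, with a log2 difference of -0.71 ± 0.15 (SE, n = 2 each; limma, unadjusted p = 0.00324, adjusted p = 0.357) and rank 188 by p among all genes. Its 95% interval ran from -1.08 to -0.34, and leaving out each array gave -0.86 to -0.57.

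Ndufaf6, needed for the mitochondrially encoded part of complex I, lay on the other side, at 3.6 and 3.64 in siNTC and 3.97 and 4.06 in siNF90. Its log2 difference was 0.395 ± 0.12 (limma, adjusted p = 0.414). The other 6 assembly factors lay between -0.04 (Ndufaf3) and 0.17 (Ndufaf4), and the median of all 8 was 0.04. The 2 factors farthest from 0 thus pointed in opposite directions.

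**Figure D3:**
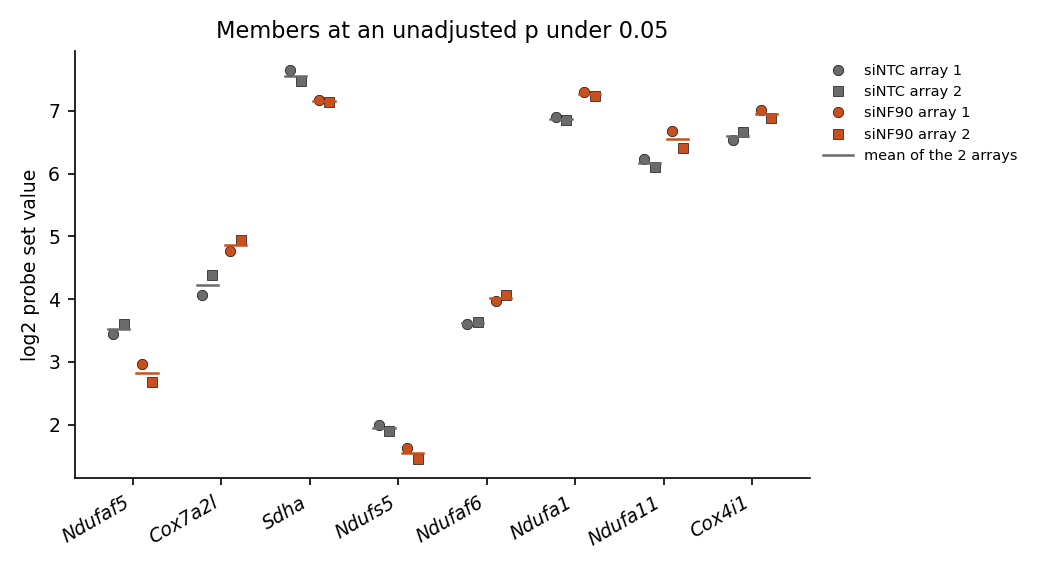
Log2 values on each of the 4 arrays, with group means as lines, for the 8 members at an unadjusted p under 0.05 that reach the median level. Ndufaf5, Sdha and Ndufs5 are lower on both siNF90 arrays, and Cox7a2l, Ndufaf6, Ndufa1, Ndufa11 and Cox4i1 higher; none passed after adjustment over all genes.

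Complex II, succinate dehydrogenase, also serves in the citric acid cycle and has no mitochondrially encoded subunit. Its catalytic flavoprotein Sdha stood at 7.65 and 7.48 in siNTC and at 7.18 and 7.15 in siNF90. It was 1.32-fold lower, with a log2 difference of -0.4 ± 0.13 (SE, n = 2 each; limma, unadjusted p = 0.0193, adjusted p = 0.418). Sdhb, the iron-sulphur subunit that takes electrons from Sdha, stood at 5.93 and 5.69 against 5.97 and 6.05, a difference of 0.2 ± 0.14. The Sdhb difference was 0.08 without the second siNTC array and 0.32 without the first. Both siNF90 arrays lay lower for Sdha and higher for Sdhb. The membrane anchors Sdhc and Sdhd overlapped between the groups, with differences of -0.03 and -0.1, and the median of the 4 subunits was -0.06.

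Complex III passes electrons from reduced coenzyme Q to cytochrome c. Of 7 nuclear subunits, 5 had a difference above 0 and 2 below, with a median of 0.15, where 53.1% of all genes were higher. The groups overlapped in 5 of the 7 and not in 28.6%, against 48.1% of all genes that reached the median level. Uqcrfs1, the Rieske iron-sulphur protein, stood at 4.08 and 4.07 in siNTC and at 4.29 and 4.24 in siNF90, a difference of 0.19 ± 0.12 (limma, adjusted p = 0.632). Uqcrc1, a core protein of the matrix side, stood at 5.5 and 5.39 against 5.46 and 5.72, with overlapping groups and a difference of 0.015 to 0.275 when each array was left out. Uqcr11, a small subunit, stood at 3.56 and 3.02 against 3.47 and 3.54, with the second siNTC array apart from the other 3 and a difference of 0.215. Without that array Uqcr11 differed by -0.06 and the median of complex III was also -0.06.

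That array was the lowest of the 4 for 38 of the 97 members (39.2%), and for 27.0% of all genes. Leaving it out took the median of all nuclear subunits from 0.045 to 0.005. It gave -0.07 for complex IV, where the median over all arrays was 0.02, and 0.01 for the F1 part of ATP synthase, where it was 0.08.

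**Figure D4:**
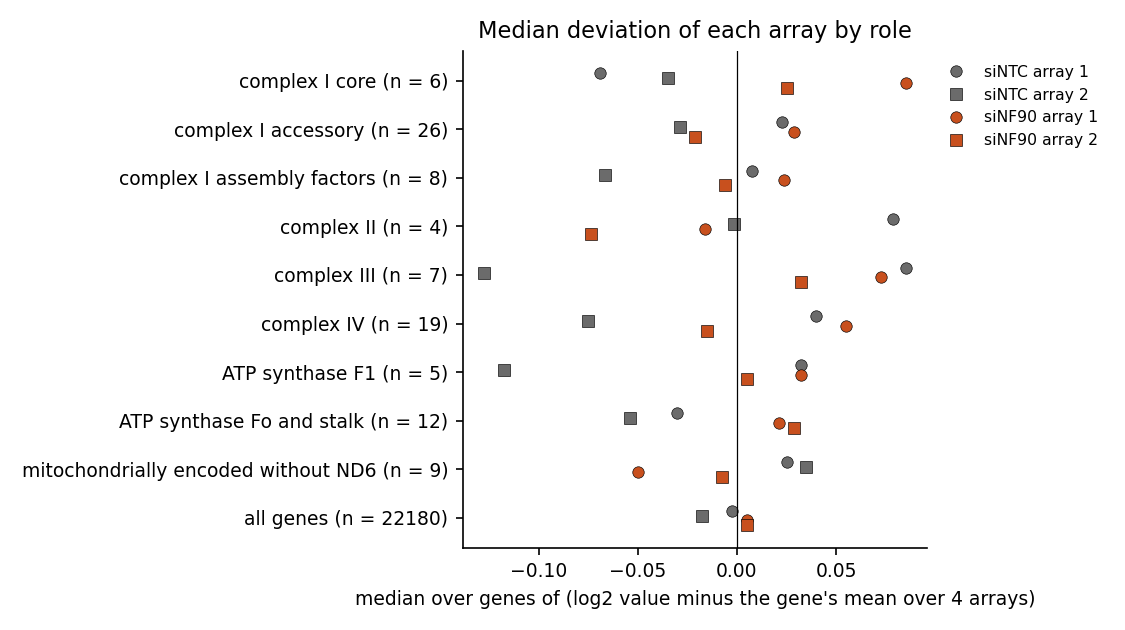
Median, over the genes of each role, of a gene's log2 value minus its mean over the 4 arrays, for each array; the mitochondrially encoded genes are shown without ND6. The second siNTC array is lowest in complexes III and IV and ATP synthase, in complex I accessory subunits and assembly factors, and over all genes. Both siNF90 arrays exceed both siNTC arrays in complex I core, in the Fo part and stalk and over all genes. Complex II and the mitochondrially encoded genes show the opposite order.

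Complex IV, cytochrome c oxidase, reduces oxygen. Its 19 nuclear members include Ndufa4, once assigned to complex I, 8 isoforms or paralogs of common subunits, and Cox7a2l, which links complexes III and IV into supercomplexes. Cox7a2l stood at 4.07 and 4.38 in siNTC and at 4.77 and 4.94 in siNF90, the largest difference above 0 among the members. It was 1.55-fold higher, with a log2 difference of 0.63 ± 0.15 (SE, n = 2 each; limma, unadjusted p = 0.00666, adjusted p = 0.364), and 0.47 to 0.79 when each array was left out.

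Cox4i1, the common isoform of the subunit through which ATP inhibits the enzyme, stood at 6.53 and 6.67 against 7.01 and 6.88, a difference of 0.345 ± 0.13 (limma, adjusted p = 0.459). The groups did not overlap, siNF90 being higher. Cox5a, a subunit of the matrix side, stood at 5.87 and 5.71 against 5.79 and 5.43, a difference of -0.18 ± 0.16 with overlapping groups. Leaving out each array gave -0.36 to 0 for Cox5a, with 0 in the absence of the second siNF90 array. The 10 common subunits had 5 higher and 5 lower and a median of -0.01, with Cox7b lowest at -0.29.

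Of the 8 isoforms or paralogs (Cox4i2, Cox6a2, Cox6b2, Cox7a1, Cox7b2, Cox8b, Cox8c and Ndufa4l2), 3 reached the median level in either group. Cox6a2, the isoform of heart and skeletal muscle, stood at 3.78 and 3.55 in siNTC and at 3.49 and 3.93 in siNF90, with overlapping groups. These 8 members had 4 higher and 4 lower and a median of 0.01.

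ATP synthase turns a ring in the membrane (Fo), whose rotation drives the catalytic head (F1). The catalytic beta subunit Atp5b stood at 10.00 and 9.91 in siNTC and at 9.83 and 9.74 in siNF90, and the alpha subunit Atp5a1 at 8.23 and 8.26 against 8.14 and 7.99. Their log2 differences were -0.17 ± 0.12 and -0.18 ± 0.12 (limma, adjusted p = 0.688 and 0.677). The small subunits of the central stalk lay on the other side. Atp5d stood at 5.2 and 5.17 against 5.51 and 5.3, and Atp5e at 5.22 and 5.18 against 5.47 and 5.37, each with a difference of 0.22. The groups did not overlap in these 4 genes, as in 48.1% of all genes that reached the median level, while the gamma subunit Atp5c1 overlapped.

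The 12 members of Fo and the stalks had 9 higher and 3 lower and a median of 0.07, where 53.1% of all genes were higher. Atp5g1, Atp5g2 and Atp5g3 encode the same mature c subunit, the unit of the rotating ring. Atp5g2 stood at 7.96 and 7.89 in siNTC and at 8.13 and 8.04 in siNF90, and Atp5g3 at 5.58 and 5.54 against 5.62 and 5.61. Atp5g1 stood at 1.33 and 0.98 against 1.8 and 1.49, below the median level in both groups, so no fold is given for its difference of 0.49 ± 0.18 (limma, adjusted p = 0.455). All 3 paralogs had both siNF90 arrays above both siNTC arrays, as did 21.9% of all genes, and the difference of Atp5g3 was 0.055. Atp5md, a small subunit of the membrane part, stood at 9.29 and 9.18 against 9.43 and 9.37.

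The mitochondrially encoded genes are transcribed as long precursors from both strands of the circular genome. Of the 10 measured, 8 had a difference below 0 and 2 above, with a median of -0.06, against 45 of 79 above 0 and a median of 0.04 for the nuclear subunits. Over all genes 53.1% had a difference above 0. Apart from ND6, each of the 10 differed by less than 0.2, and none passed the test (limma, adjusted p from 0.517 to 0.987). COX3, a core subunit of complex IV, stood at 10.53 and 10.35 in siNTC and at 10.28 and 10.27 in siNF90, a difference of -0.17 ± 0.13. COX1, the catalytic subunit of the same complex, stood at 10.95 and 11.03 against 11.03 and 10.92, with overlapping groups.

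CYTB, the cytochrome b of complex III, stood at 10.84 and 10.9 against 10.8 and 10.87. Among the membrane subunits of complex I, ND1 stood at 10.91 and 10.84 against 10.8 and 10.84, and ND2 at 10.63 and 10.51 against 10.42 and 10.52. ND5 stood at 11.01 and 11.02 against 10.91 and 11, the only other of these genes, beside COX3 and ND6, whose groups did not overlap. In these 3 both siNF90 arrays lay below, as in 17.9% of all genes. Of all genes that reached the median level, 48.1% did not overlap. ND3 (10.78 and 10.56 against 10.59 and 10.63), ND4 (11.11 and 11.28 against 11.23 and 11.18) and ND4L (9.87 and 10.04 against 10.0 and 10.05) overlapped. With quantile normalization the signs of COX1, CYTB and ND4 turned, and those of ND3 and ND4L turned without the first siNTC array. No direction can be given for these 5 genes, and the count of 8 below and 2 above includes them.

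ND6 alone is encoded on the opposite strand from the others. It stood at 8.27 and 6.76 in siNTC and at 6.09 and 6.74 in siNF90. The first siNTC array stood 1.51 above the second, while the second siNF90 array lay within 0.02 of the second siNTC array. The log2 difference was -1.1 ± 0.49 (SE, n = 2 each; limma, adjusted p = 0.517), and -0.345 without the first siNTC array and -1.855 without the second. For the 9 genes other than ND6 the median was -0.06.

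**Figure D5:**
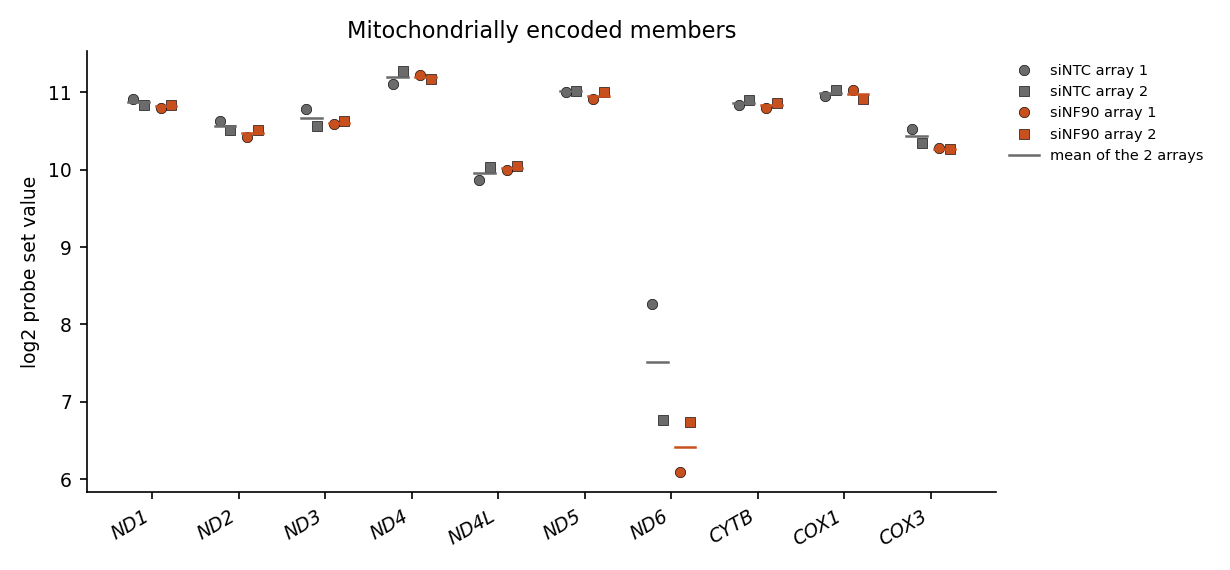
Log2 values of the 10 mitochondrially encoded members on each of the 4 arrays, with group means as lines. ND6 varies from 6.09 to 8.27 with the first siNTC array apart, while the other 9 genes vary by less than 0.3 over the 4 arrays.

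Few members varied widely between arrays of a group. A distance of at least 0.5 within a group was found in 8 members (8.25%), against 12.3% of all genes. Beside ND6 these were Cox5b, a nuclear subunit of complex IV, with 6.32 and 5.43 on the siNF90 arrays, Cox7c, Ndufab1, Ndufaf8, Ndufb11, Ndufv3 and Uqcr11. Cox5b, Cox7c and Ndufab1 were lowest on the second siNF90 array.

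Genes of the same pathway outside the symbol rule were examined in 9 lists, 90 genes in all, and again none was called by limma after adjustment. Of these, 48 were higher (53.3%, against 53.1% of all genes) and 41 lower, with a median of 0.03. At an unadjusted p under 0.05 there were 6 (6.67%), below the 10.3% of all genes. Assembly factors of complex III had 6 of 6 above 0 (median 0.13), with Uqcc2, which acts on newly made cytochrome b, at 4.25 and 4.2 on the siNTC arrays against 4.62 and 4.58, and Uqcc3 at a difference of 0.2. The groups overlapped in 4 of these 6 and not in 33.3%, against 48.1% of all genes that reached the median level. Assembly factors of complex II had 2 of 4 above 0, with Sdhaf3 at 0.56 ± 0.14 and Sdhaf4 at -0.43 ± 0.36. The siNTC means of Sdhaf3 and Sdhaf4 were 1.94 and 2.015, near the median level of 1.845. Further assembly factors of complex I had 8 of 10 below 0 (median -0.09), with Ecsit at 0.42 ± 0.17 and Tmem126a at -0.33 ± 0.18.

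Assembly factors of complex IV had 9 above 0 and 9 below of 19 (median 0), with Taco1, a translational activator of COX1, at -0.24 ± 0.16 and Cox16 at -0.2 ± 0.15. Those of ATP synthase had 2 of 5 above 0 (median -0.1), with Tmem70 at -0.22 ± 0.12 and Atpaf1 at 0.16 ± 0.14. Electron carriers and feeder enzymes had 5 of 10 above 0 (median -0.01), with Dhodh at 0.47 ± 0.22 and Sqor at -0.31 ± 0.16. Coenzyme Q synthesis had 9 of 12 above 0 (median 0.14), with Pdss2 at 0.2 ± 0.12 and Coq10a at -0.2 ± 0.12. None of these genes was called.

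Transcription and maintenance of mitochondrial DNA had 7 of 14 above 0 (median 0.04), with Tefm, the elongation factor of mitochondrial transcription, at -0.37 ± 0.13 from a level of 1.92, and Mterf1a at 0.37 ± 0.37. Nuclear regulators had 6 of 10 above 0 (median 0.04). Ppargc1a (PGC-1alpha), a coactivator of mitochondrial biogenesis, stood at 5.43 and 5.26 in siNTC and at 4.9 and 5.0 in siNF90, a log2 difference of -0.395 ± 0.13 (limma, unadjusted p = 0.0223, adjusted p = 0.43). The related coactivator Pprc1 stood at 4.42 and 4.32 against 4.68 and 4.69, on the other side, with a difference of 0.31 ± 0.12. Neither gene's groups overlapped, with siNF90 lower for Ppargc1a and higher for Pprc1.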

How the data were processed

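Total RNA of 4 samples was labelled and hybridised to Affymetrix Mouse Gene 2.1 ST arrays, 2 per group. The authors deposited 1 table of log2 values for 41345 probe sets. The submitters' processing notes name Transcriptome Analysis Console. Not given in the sources used here were its version, background correction, normalization, summarization and log base. Base 2 was inferred from maxima of 11.86 to 12.01.

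Names came from GEO's platform annotation, in which 23521 probe sets had 1 symbol, 1814 several and 16010 none here. For a gene with several probe sets the one with the highest mean was used (9 of the 97 members). Probe sets with several symbols were left out (10 with a member symbol), as were 2 with a pseudogene symbol. Of the named probe sets 23328 matched a RefSeq gene identifier, and no symbol changed.

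All 22180 genes were fitted with limma 3.58.1 (lmFit and eBayes, R 4.3.3) as siNF90 minus siNTC, as a two-sided test, with p-values adjusted by Benjamini-Hochberg over the whole table and a threshold of 0.05. The fit had 5.92 degrees of freedom in all, and the scripts were tested on simulated data. With 2 arrays a group an exact permutation test cannot reach that threshold, so it was not used. The labels name no pairing of the arrays. Deviations from the group means of same-numbered arrays correlated at -0.0202 across genes, which does not settle whether the arrays were prepared in pairs.

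Members, lists and tests were chosen with earlier results of these data known. Values per array are given for members at an unadjusted p under 0.05 at or above the median level (up to 25), the 2 with the largest difference in each role, catalytic or marker subunits, the c subunit paralogs and all mitochondrially encoded members; other names were chosen after their values were seen. Up to 2 genes per pathway list are named. Alternatives were the replicate block, a trend or robust prior, a filter on level, median centring, quantile normalization, the mean over probe sets, another member list for complex IV, and leaving out each array.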

Additional observations from a re-analysis of the deposited data

Results flagged for a closer look

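Of the 10 probe sets that carry a respiratory chain symbol beside another symbol, and that were left out of the comparison, 4 had both siNF90 arrays above both siNTC arrays and 2 had both below. They are given because they lie outside the genes tested, by probe set identifier since their signal cannot be assigned to 1 gene. Probe set 17213572 stood at 2.6 and 2.87 in siNTC and at 3.44 and 2.99 in siNF90, a log2 difference of 0.48. Probe set 17294235 differed by 0.34, probe set 17457540 by 0.32 and probe set 17547698 by 0.06. Probe set 17548616 carries the same symbols as 17294235 and stood at 7.53 and 7.41 in siNTC against 7.49 and 7.43. Its groups overlapped. Over all genes both siNF90 arrays lay above in 21.9%. Of the 2 with siNF90 below, probe set 17316436 stood at 2.72 and 2.57 in siNTC against 2.53 and 2.48, and probe set 17325719 at 4.76 and 4.87 against 4.68 and 4.72. Probe sets 17547698 and 17316436 carry the same symbols and lay on opposite sides, the first at 8.45 to 8.56. Over all genes both siNF90 arrays lay below in 17.9%. These differences were not tested.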

How the results depend on the processing

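No member passed at an adjusted p under 0.05 under any alternative run, and the smallest adjusted p of a named member was 0.0738, with a trend in eBayes. With that trend 101 genes were called over all genes and 19 members were at an unadjusted p under 0.05. Whether the arrays were prepared in pairs is not settled. The replicate block left 8 members at an unadjusted p under 0.05 and called no gene. Without siNF90 replicate 2 there were 3 such members, without siNF90 replicate 1 and without siNTC replicate 2 there were 5 each, and the range was 3 to 7, the lone array of a group being assumed to vary like the other group. The median difference of the Fo part and stalk was 0.0825 with quantile normalization and with median centring and 0.0475 with the filter on level. Leaving out each array gave medians of -0.035 to 0.055 for complex I accessory subunits, 0.01 to 0.1125 for assembly factors, -0.1125 to -0.0125 for complex II, -0.055 to 0.2 for complex III, -0.07 to 0.075 for complex IV and 0.0375 to 0.0875 for the Fo part and stalk. The other medians moved by less than the spread between arrays. Signs turned for COX1 (0.0012), CYTB (0.0006) and ND4 (-0.025) with quantile normalization and for Ndufa11 (-0.0025) with the mean of probe sets. With an array left out the ranges crossed 0 for COX1 (-0.07 to 0.04), ND3 (-0.17 to 0.05), ND4 (-0.075 to 0.095), ND4L (-0.015 to 0.155) and Uqcr11 (-0.055 to 0.485). With 2 arrays a group and no measure of background, small differences and low values limit what can be told apart.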
